A study of Homo sapiens with 8 samples.

Results

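CD151 and 9 other tetraspanins (CD9, CD63, CD81, CD82, TSPAN3, TSPAN4, TSPAN6, TSPAN14 and TSPAN15) were followed through a RIP-chip experiment in A431 cells, a human squamous carcinoma cell line. The genes were taken by name, with every array probe whose RefSeq accession belongs to one of them. This gave 15 probes of 10 genes, out of 22439 gene symbols on the array, of which 10956 could be measured. All 15 probes stood well above background on each of the 8 arrays. The cells had been transfected with 10 nM of a miR-634 mimic (miR-634 cells) or of a negative control (miR-NC cells) and were lysed 24 h later. RNA held by AGO2, the Argonaute protein that carries a miRNA to its target mRNAs, was pulled down with an antibody (RIP) and hybridized beside total RNA of the same kind of cells (input). There were thus 4 groups of 2 arrays, named by the miRNA and the RNA used (miR-NC input, miR-634 input, miR-NC RIP, miR-634 RIP). The study divided RIP by input in each kind of cell and then compared the cells, to find mRNAs brought to AGO2 by miR-634. The cells were 1 line given a synthetic miRNA, and nothing says that the 2 arrays of a group came from separate transfections, so p-values measure the spread between these arrays, which may be technical. The labels of the input arrays name a normal rabbit IgG antibody, whereas the study's own description calls them total RNA. They were treated as total RNA, and the 8 arrays hold no separate group of an IgG pull-down.

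Tetraspanins are small proteins that cross the membrane and gather integrins, proteases and signaling receptors into shared platforms. CD151 binds the laminin receptors of epithelial cells, CD63, CD9 and CD81 are the classic marker proteins of exosomes, and TSPAN14 and TSPAN15 belong to a subgroup named TspanC8 that escorts the protease ADAM10. A miRNA guides AGO2 mainly through its seed, a short stretch near its 5′ end that pairs with target mRNAs, and pairing commonly lowers the mRNA or its translation.

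The miRNA given to the cells is shown because its seed is what AGO2 could use to find tetraspanin mRNAs. The reference sequence of RefSeq lies at chr17:66787132-66787153 on the plus strand of GRCh38.p14 and is printed 5′ to 3′, with the seed (bases 2 to 8) in capitals:
hsa-miR-634: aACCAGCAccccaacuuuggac
None of the other miRNAs among the 2370 mature sequences in the RefSeq table shared this seed (0 others). The complement of the seed, UGCUGGU, was not searched for in the tetraspanin mRNAs, whose sequences were not used here.

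Levels are log2 intensities minus the 75th percentile of each array, so 0 is that percentile, and a level was compared only between arrays of the same probe. The 2 arrays of a group correlated at 0.996 to 0.999 across probes. The share of spots well above background was 45.6% to 45.8% on the input arrays, 33.6% and 34.5% in miR-NC RIP, and 40.0% on both arrays of miR-634 RIP, and the part of this difference in the results was not tested. All 7 squamous epithelial markers, among them KRT5, KRT14 and TP63, were well above background on all 8 arrays. Of 5 markers of other cells, CD3E and PECAM1 were above it on 0 arrays, DCN on 1, COL1A1 on 4 and PTPRC on 5, by any of their probes. All input arrays lay in 1 row of the slide and all RIP arrays in the other, with the miRNAs in separate columns, so place on the slide and group cannot be told apart.

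CD151 mRNA was held by AGO2 more strongly in miR-634 cells than in miR-NC cells, while its amount in total RNA hardly differed. The log2 level was 5.47 and 5.49 on the miR-NC input arrays and 5.42 and 5.46 on the miR-634 input arrays. On the RIP arrays it was 5.88 on both of the miR-NC cells, and 6.89 and 6.90 in miR-634 cells. Both miR-634 RIP arrays thus lay above all other arrays, and the miR-634 input arrays lay slightly under the miR-NC ones. How many of all measured genes separate in such ways was not counted, and 76.8% of them were called in the RIP change. RIP over input was 0.39 ± 0.05 (log2, SE) with miR-NC and 1.46 ± 0.05 with miR-634. The difference of these ratios, called the fold change of enrichment, was 1.06 ± 0.06, or 2.09-fold with a 95% confidence interval of 1.88 to 2.33 (limma, adjusted p = 2.42e-05). The 2 replicate numbers gave 2.09-fold each. The input change was -0.05 with an interval of -0.16 to 0.06 (adjusted p = 0.526). CD151 stood above 87.8% of the measured genes in its fold change of enrichment. The call of RIP over input in miR-NC cells was lost with quantile normalization, where it was 0.07, and turned to -2.13 with scaling on spike-in probes. CD151, CD63 and TSPAN6 are among the genes that the study itself picked partly from these arrays, so their direction here is not independent evidence.

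**Figure D1:**
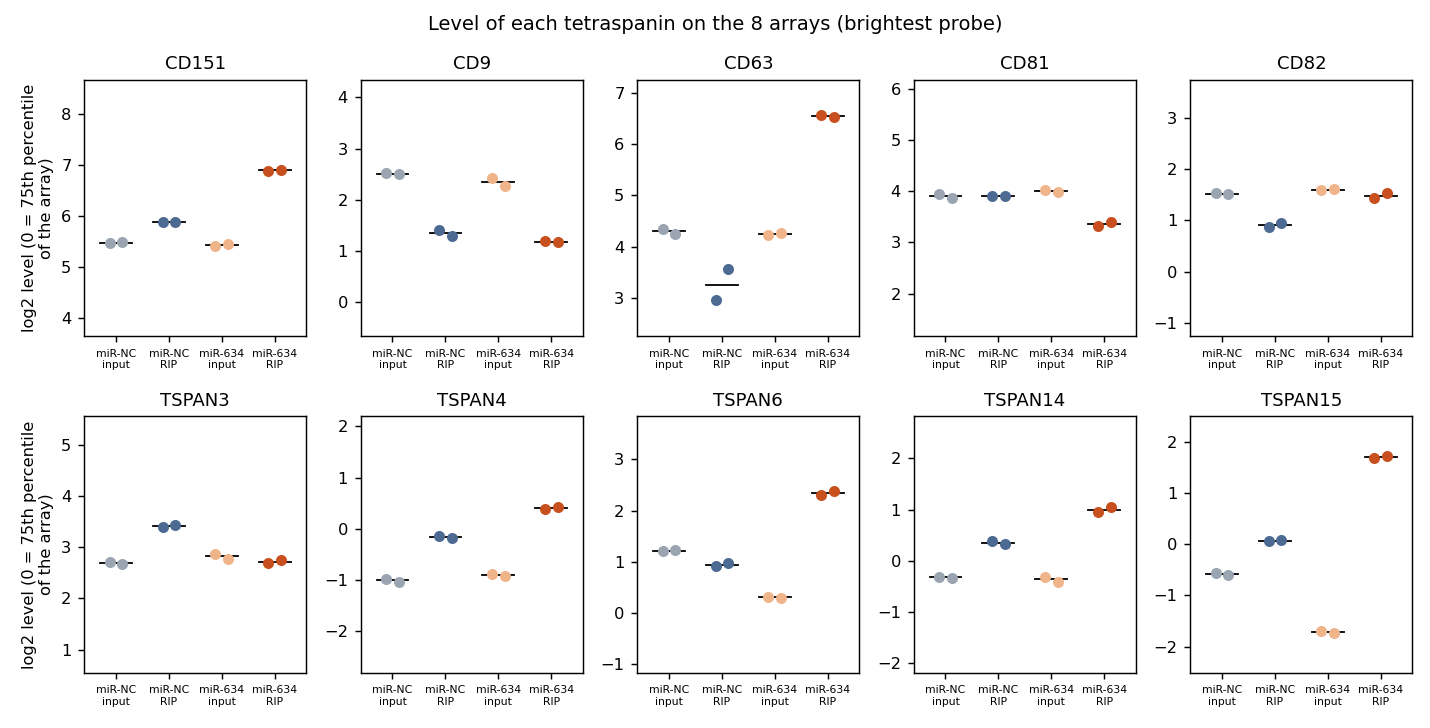
Log2 level of the brightest probe of each tetraspanin on each of the 8 arrays (0 is the 75th percentile of the array). Points are arrays, 2 per group, lines are group means and every panel spans 5 log2 units. In CD151, CD63, TSPAN4, TSPAN6, TSPAN14 and TSPAN15 the miR-634 RIP arrays are the highest, in TSPAN6 and TSPAN15 the miR-634 input arrays are the lowest, and the 2 miR-NC RIP arrays of CD63 are 2.95 and 3.56. How common such orders are among all measured genes was not counted.

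Across the 10 genes, 7 had a higher ratio of RIP to input in miR-634 cells than in miR-NC cells (CD63, TSPAN15, TSPAN6, CD151, TSPAN14, CD82 and TSPAN4), 2 a lower one (TSPAN3 and CD81), and CD9 did not pass the test. Over all measured genes, 27.7% were called higher and 42.5% lower, so calls were common in both directions. The median of the 10 genes was 0.59 beside -0.22 for all measured genes. These counts rest on scaling by the bulk of the mRNAs: with scaling on 7 spike-in probes, which assumes equal spike-in RNA on every array, 8 of the 10 passed as higher and 0 as lower, beside 66.3% and 1.7% of all measured genes, and the median of all genes moved to 0.87. Neither the counts nor the median of the 10 are independent evidence about the family. The study picked CD151, CD63 and TSPAN6 partly from these arrays, and the 10 genes were chosen with earlier results of these data known.

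CD63, which resides in late endosomes and lysosomes and is carried out on exosomes, had the largest difference of the 10. Its level was 4.35 and 4.26 on the miR-NC input arrays and 4.22 and 4.26 on the miR-634 input arrays. The miR-NC RIP arrays, at 2.95 and 3.56, lay below every input array, whereas the miR-634 RIP arrays, at 6.56 and 6.53, lay above every one. RIP over input was -1.05 ± 0.18 with miR-NC (limma, adjusted p = 0.00164) and 2.30 ± 0.18 with miR-634 (adjusted p = 2.61e-05). This ratio, unlike the level, was low among the measured genes with miR-NC, above 9.05% of them. With miR-634 it was above 96.7%. Under spike-in scaling the same ratios were -3.58 and 0.87. The fold change of enrichment was 3.35 ± 0.25, or 10.2-fold with an interval of 6.70 to 15.6 (limma, adjusted p = 6.2e-05), above 99.6% of the measured genes. The size was the least precise of the 10 because the miR-NC RIP arrays differed: replicate number 1 gave 13.4-fold and number 2 gave 7.82-fold, and without 1 array the estimate ran from 8.29-fold to 12.6-fold. The input change of -0.06 had an interval of -0.50 to 0.37, which leaves room for a change of either sign.

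Of the other well-known surface tetraspanins, CD81 had a lower ratio of RIP to input in miR-634 cells, CD82 a somewhat higher one, and CD9 did not pass the test. CD9, which acts in cell adhesion and membrane fusion, was 2.52 and 2.50 on the miR-NC input arrays, 2.43 and 2.27 on the miR-634 input arrays, 1.41 and 1.29 in miR-NC RIP and 1.19 and 1.17 in miR-634 RIP. The RIP arrays lay below the input arrays in both kinds of cells, by -1.16 ± 0.07 and -1.17 ± 0.07. Its fold change of enrichment was -0.01 with an interval of -0.26 to 0.23 (limma, adjusted p = 0.916). The value of CD151 lay outside this interval, which reflects only the spread between these arrays under this scaling. With spike-in scaling CD9 reached 1.07, beside 2.15 for CD151 and a median gene of 0.87.

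In contrast to CD63, CD81, a partner of B-cell and immunoglobulin-like surface proteins that also marks exosomes, was lower in RIP of miR-634 cells. It was 3.94 and 3.86 on the miR-NC input arrays, 3.91 on both miR-NC RIP arrays, 4.02 and 3.99 on the miR-634 input arrays, and 3.33 and 3.40 on the miR-634 RIP arrays. The miR-634 RIP arrays were thus the lowest. The fold change of enrichment of CD81 was -0.65 ± 0.08, or 1.57-fold lower (adjusted p = 0.000409), and its second probe gave -0.69 ± 0.08. CD82, known as a suppressor of cell migration, was 0.88 and 0.94 in miR-NC RIP and 1.44 and 1.53 in miR-634 RIP, with all input arrays between 1.52 and 1.62. Its fold change of enrichment was 0.50 ± 0.08, or 1.41-fold (adjusted p = 0.00133), so its mRNA moved closer to the input level. TSPAN3, a widely expressed member, was 3.40 and 3.43 in miR-NC RIP and 2.69 and 2.74 in miR-634 RIP. Its input arrays lay between 2.67 and 2.87. The TSPAN3 fold change of enrichment was -0.83 ± 0.08, or 1.78-fold lower (adjusted p = 0.000146). The falls of CD81 and TSPAN3 are falls against the bulk of mRNAs, since with spike-in scaling they became 0.43 and 0.26, with neither called and both under the median gene.

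**Figure D2:**
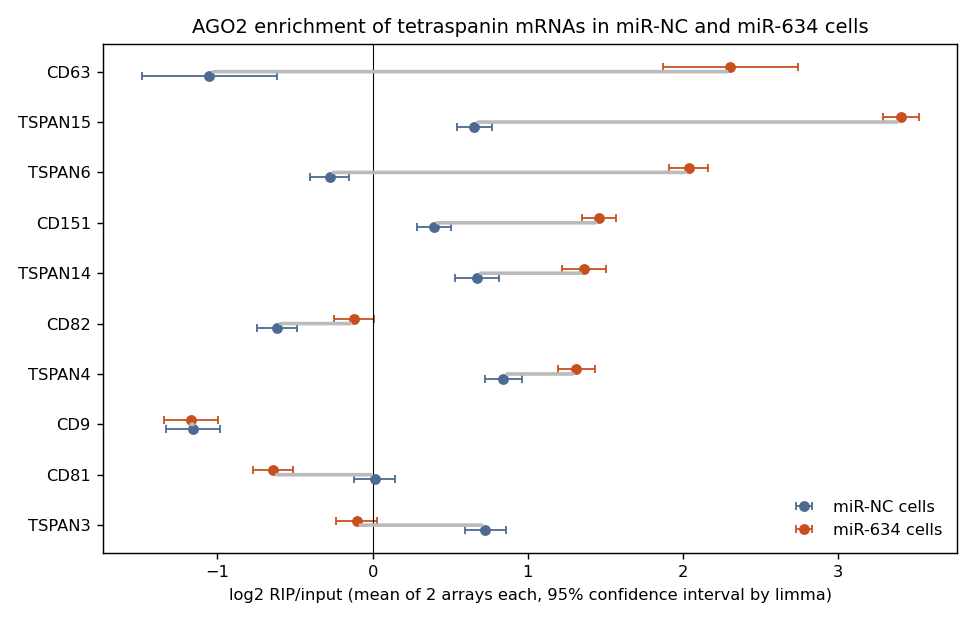
Log2 ratio of RIP to input for each tetraspanin in miR-NC cells (blue) and miR-634 cells (orange), from 2 arrays per group, with 95% confidence intervals by limma and genes in order of the difference. CD63 moves from -1.05 to 2.30 and TSPAN15 from 0.66 to 3.40, CD9 stays at -1.16 and -1.17, and CD81 and TSPAN3 move to the left. The position of 0 depends on the scaling: with spike-in probes all 10 ratios in miR-NC cells lay below 0, and CD81 and TSPAN3 moved to the right by 0.43 and 0.26.

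TSPAN6 and TSPAN15 combined a gain on AGO2 with a loss from total RNA. TSPAN6, which has been tied to endosomal sorting, was 1.21 and 1.23 on the miR-NC input arrays and 0.32 and 0.29 on the miR-634 input arrays. Its RIP level was 0.92 and 0.97 with miR-NC and 2.30 and 2.38 with miR-634. The groups did not overlap in either comparison, where 20.4% (input change) and 76.8% (RIP change) of all measured genes were called. Total TSPAN6 RNA fell by 0.91 on the log2 scale, or 1.89-fold (SE 0.05, limma, adjusted p = 0.000631), while the RIP level rose by 1.40 ± 0.05. Together these gave a fold change of enrichment of 2.31 ± 0.07, or 4.97-fold with an interval of 4.39 to 5.62 (adjusted p = 2.36e-06).

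TSPAN15, the TspanC8 member known for directing ADAM10 to cadherins, was -0.57 and -0.61 on the miR-NC input arrays and -1.69 and -1.73 on the miR-634 input arrays. Its RIP level was 0.05 and 0.08 with miR-NC and 1.67 and 1.71 with miR-634. It was the member with the highest ratio of RIP to input in miR-634 cells, 3.40 ± 0.05 or 10.6-fold, a ratio above 99.4% of the measured genes. Total TSPAN15 RNA fell by 1.12, or 2.17-fold (SE 0.05, adjusted p = 0.000397), which placed it below all but 0.183% of the measured genes. The fold change of enrichment was 2.75 ± 0.07, or 6.71-fold with an interval of 5.99 to 7.51 (adjusted p = 1.28e-06). Part of that value is the lower input: the RIP level itself rose by 1.63 ± 0.05, or 3.09-fold, and the input change supplies the rest.

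TSPAN14, also of the TspanC8 subgroup, and TSPAN4, best known from the migration tracks that moving cells leave behind, rose more modestly. The brightest TSPAN14 probe was -0.31 and -0.33 on the miR-NC input arrays, -0.31 and -0.41 on the miR-634 input arrays, 0.38 and 0.32 in miR-NC RIP, and 0.96 and 1.05 in miR-634 RIP. Its fold change of enrichment was 0.69 ± 0.08, or 1.61-fold (adjusted p = 0.000472). TSPAN4 was -0.98 and -1.03 in miR-NC input, -0.88 and -0.92 in miR-634 input, -0.14 and -0.18 in miR-NC RIP, and 0.40 and 0.43 in miR-634 RIP. Its fold change of enrichment was 0.47 ± 0.07, or 1.39-fold (adjusted p = 0.00117). On the brightest probe of each gene the RIP arrays of each kind of cell lay above all input arrays, and those of miR-634 cells above those of miR-NC cells. This did not hold for 2 dimmer TSPAN14 probes, given with the other probes.

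Placed in order of the fold change of enrichment, the intervals of CD63 (2.74 to 3.97) and TSPAN15 (2.58 to 2.91) overlapped, and that of TSPAN6 (2.13 to 2.49) lay under both. CD151 (0.91 to 1.22) followed and did not overlap with TSPAN14 (0.49 to 0.89). TSPAN14, CD82 (0.31 to 0.68) and TSPAN4 (0.30 to 0.64) overlapped each other. CD9 included 0, and CD81 (-0.84 to -0.47) and TSPAN3 (-1.01 to -0.64) overlapped at the lower end.

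In cells without added miR-634 the 10 mRNAs already fell on both sides of their input level. TSPAN4 (0.84), TSPAN3 (0.73), TSPAN14 (0.67), TSPAN15 (0.66) and CD151 (0.39) were called higher in RIP, against 33.3% of all measured genes. CD9, CD63, CD82 and TSPAN6 (-0.28) were called lower, against 44.9%, and CD81 at 0.01 did not pass. The higher calls hold relative to the bulk of mRNAs, since with spike-in scaling all 10 were called lower, as were 98% of all measured genes, with the median of all genes at -2.65. In miR-634 cells 6 genes were called higher, against 35.9% of all genes, and 2 lower (CD9 and CD81), against 48.1%, while CD82 and TSPAN3 did not pass. The median of the 10 ratios was 0.20 with miR-NC and 1.34 with miR-634, beside -0.12 and -0.17 for all genes. With spike-in scaling, 3 of the 6 higher calls remained in miR-634 cells (CD63, TSPAN6 and TSPAN15), beside 6.54% of all genes called higher, CD151 was at 0.02, and TSPAN4 and TSPAN14 turned to -0.13 and -0.08.

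The changes in total RNA and in AGO2-bound RNA were then set side by side, to ask which of them each fold change of enrichment rested on. In total RNA 2 of the 10 genes were called lower (TSPAN6 and TSPAN15) and 0 higher, against 10.6% and 9.88% of all measured genes. The other 8 lay between -0.16 (CD9) and 0.13 (TSPAN3), and none passed the test. At an unadjusted p under 0.05, limma gave 1 gene as higher (TSPAN3), which was also called, at 0.21, after normexp background correction and quantile normalization. In AGO2-bound RNA 7 genes were called higher, against 30.6%, and 2 lower (CD81 at -0.55 and TSPAN3 at -0.70), against 46.1%. CD9 at -0.17 did not pass (adjusted p = 0.0686), though it was called lower with quantile normalization, at -0.21, and higher with spike-in scaling, at 0.70. For CD63 and CD151 the RIP level carried nearly the whole difference, with RIP changes of 3.29 ± 0.18 and 1.02 ± 0.05. It also carried most of the difference for TSPAN14 (0.65), CD82 (0.57), TSPAN4 (0.57), CD81 and TSPAN3. Only for TSPAN6 and TSPAN15 did a called input change add to the RIP change. Whether fewer cells held TSPAN6 and TSPAN15 RNA, or each cell held less, cannot be told apart in these bulk samples.

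**Figure D3:**
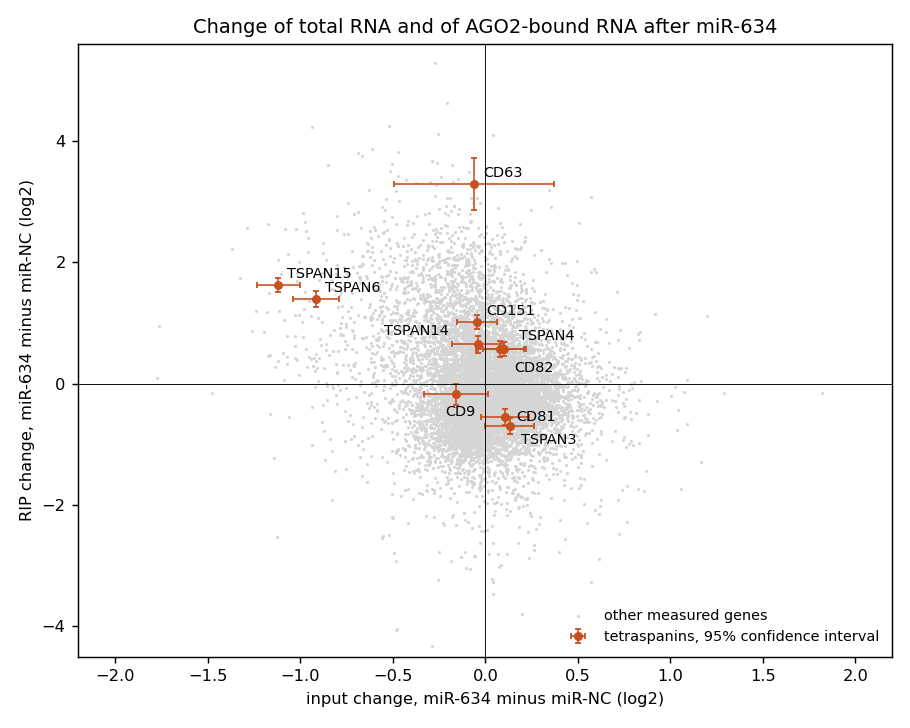
Input change (x axis) against RIP change (y axis), both miR-634 minus miR-NC in log2, for the 10 tetraspanins with 95% confidence intervals by limma, over all other measured genes in gray. TSPAN6 and TSPAN15 lie to the left with input changes of -0.91 and -1.12, CD63 lies highest at 3.29, and CD81 and TSPAN3 lie below 0, where spike-in scaling put them at 0.32 and 0.17 on the y axis.

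Of the 10 genes, 3 had more than 1 probe, and these probes gave the fold change of enrichment the same sign within each gene. CD81 gave -0.65 and -0.69, and TSPAN4 gave 0.47 and 0.34. The TSPAN14 probes all carried the accession NM_030927 and gave 0.69, 0.29, 0.42 and 0.88, each called higher (adjusted p from 0.000472 to 0.0362). The TSPAN14 probes disagreed about RIP over input itself. In miR-NC cells the brightest and the dimmest gave 0.67 and 0.70, both called higher, while the other two gave -0.58 and -0.39, both called lower. In miR-634 cells they gave 1.36 and 1.59 against -0.29 and 0.03. Whether AGO2 held TSPAN14 mRNA above the bulk therefore depended on the probe, whereas the rise in miR-634 cells did not. With the mean of the 4 probes, RIP over input in miR-NC cells was 0.10 and not called. The dimmest probe was also the least precise, with -5.09 and -4.37 on the miR-NC RIP arrays.

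**Figure D4:**
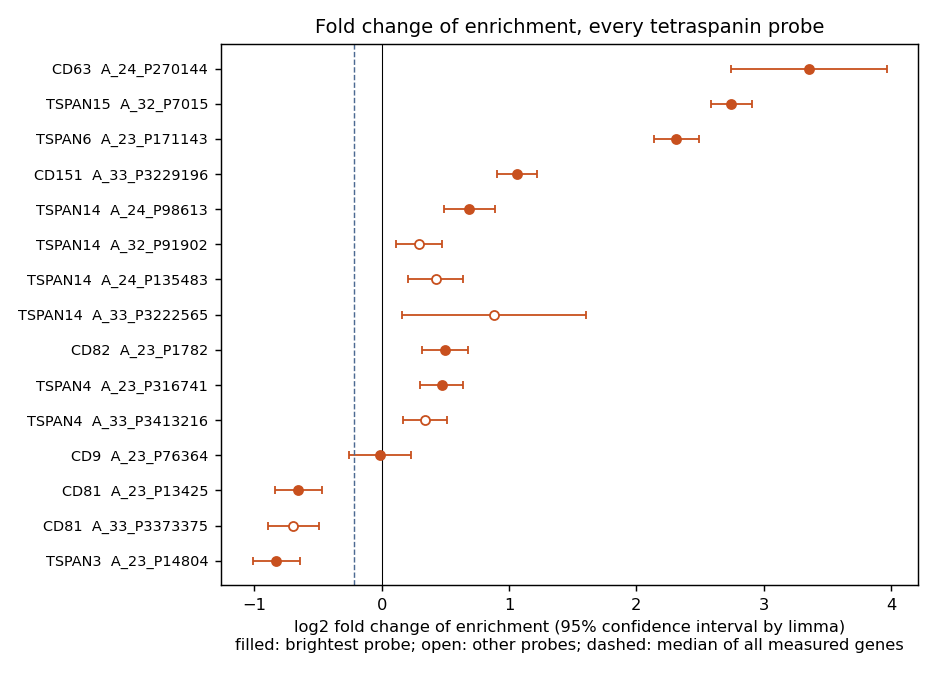
Log2 fold change of enrichment of all 15 probes with 95% confidence intervals by limma. Filled points are the brightest probe of a gene, open points its other probes, and the dashed line is the median of all measured genes, -0.22. The 4 TSPAN14 probes run from 0.29 to 0.88, and both CD81 probes lie below the dashed line, at -0.65 and -0.69, which spike-in scaling turned to 0.43 for the brighter one.

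Beyond the 10 genes, the family held 23 further tetraspanins with a probe, of which 10 were measured. Their fold change of enrichment was called higher for 5 and lower for 1, beside 27.7% and 42.5% of all measured genes, with a median of 0.26. The largest rise was that of TSPAN5, a TspanC8 member that brings ADAM10 to Notch, at 1.79 ± 0.13 or 3.45-fold (adjusted p = 4.94e-05). The other rises were TSPAN33 (0.98), which is also a TspanC8 member, ROM1 (0.97), TSPAN13 (0.40) and TSPAN31 (0.37). The only fall was that of TSPAN10, again a TspanC8 member, at -0.56 ± 0.17 (adjusted p = 0.0257), and it became 0.53, not called, with spike-in scaling. Its call was also lost with normexp and quantile normalization, and with the comparison centered on its median. TSPAN17, of the same subgroup, was 0.15 ± 0.16 and did not pass (limma, adjusted p = 0.433), but it was 1.23 and called higher with spike-in scaling. With that scaling 9 of these 10 genes were called higher and 0 lower, with a median of 1.35, beside 66.3% and 1.7% of all measured genes. In total RNA, where 10.6% of all genes were called lower and 9.88% higher, 1 of these 10 was called lower, ROM1 at -0.52 ± 0.07 (adjusted p = 0.00701), and 0 were higher in limma's test, also at an unadjusted p under 0.05. Of the 13 that were not measured, TSPAN2 was well above background on all 4 input arrays and on 0 RIP arrays, TSPAN7 and TSPAN18 on 1 input array each, and the other 10 on none, among them the leukocyte tetraspanins CD37 and CD53 and the urothelial UPK1A and UPK1B.

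Membrane proteins that tetraspanins bind or organize were all measured (15 of 15), with 7 called higher in the fold change of enrichment, 4 lower and 4 not, beside 27.7% higher and 42.5% lower of all measured genes, and a median of -0.07. Among the CD151 partners, ITGA3, the integrin chain it binds most directly, was 1.12 ± 0.07 or 2.18-fold (adjusted p = 2.73e-05), and its partner chain ITGB1 was 0.39 ± 0.06 (adjusted p = 0.00166). ITGA6 and ITGB4, which pair in hemidesmosomes, were -0.10 ± 0.09 and -0.08 ± 0.07 and did not pass. With spike-in scaling they were 0.98 and 1.01, both called higher. Of the immunoglobulin-like partners of CD9 and CD81, IGSF8 was 1.37 ± 0.11 (adjusted p = 9.33e-05) and PTGFRN was -0.07 ± 0.09, which did not pass. PTGFRN was 1.02 and called higher with spike-in scaling. ADAM10, the protease of the TspanC8 proteins, was -0.57 ± 0.08 (adjusted p = 0.00107), and 0.51, not called, with spike-in scaling. These values are of the brightest probe of each gene. ITGA6, IGSF8 and ADAM10 each had 1 further probe well above background on all arrays, whose values are not given. The largest rise was that of the membrane-bound collagenase MMP14 at 2.39 ± 0.10 or 5.23-fold (adjusted p = 5.49e-06), and the largest fall that of the tight junction protein CLDN1 at -1.46 ± 0.08 (adjusted p = 1.78e-05), which was -0.38 and not called with spike-in scaling. In total RNA 6 of these genes were called higher and 2 lower (ITGB1 at -0.22 and ADAM17 at -0.21), beside 9.88% and 10.6% of all measured genes, and 0 were called in either direction with spike-in scaling. With the 75th percentile over all probes and with the authors' processed values, 5 were called higher and 0 lower.

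Of 13 genes that sort cargo into exosomes, the vesicles that carry CD63, CD9 and CD81, 12 were measured. Their fold change of enrichment was called higher for 1 and lower for 3, with 8 not called and a median of -0.29, beside 27.7% higher and 42.5% lower of all measured genes. At an unadjusted p under 0.05, limma gave 1 as higher and 5 as lower. The rise was that of SDC4, a heparan sulfate proteoglycan, at 1.18 ± 0.07 or 2.26-fold (adjusted p = 1.8e-05). The falls were those of VPS4B (-0.70 ± 0.09, adjusted p = 0.000515), HGS (-0.65) and TSG101 (-0.56), all parts of the ESCRT machinery that buds vesicles, and with spike-in scaling they became 0.38, 0.43 and 0.52, none of them called. In total RNA 3 of the 12 were called higher (HGS at 0.26, VPS4A at 0.27 and VPS4B at 0.25) and 0 lower (1 in limma's test at an unadjusted p under 0.05), beside 9.88% and 10.6% of all genes, and none of the 3 was called with spike-in scaling. With the 75th percentile over all probes and with the authors' processed values, 1 of the 12 was called higher and 0 lower. The genes named here beyond the largest rise and fall of each list were chosen after their values were seen, except for ADAM10 and the integrin and immunoglobulin-like partners of CD151, CD9 and CD81.

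**Figure D5:**
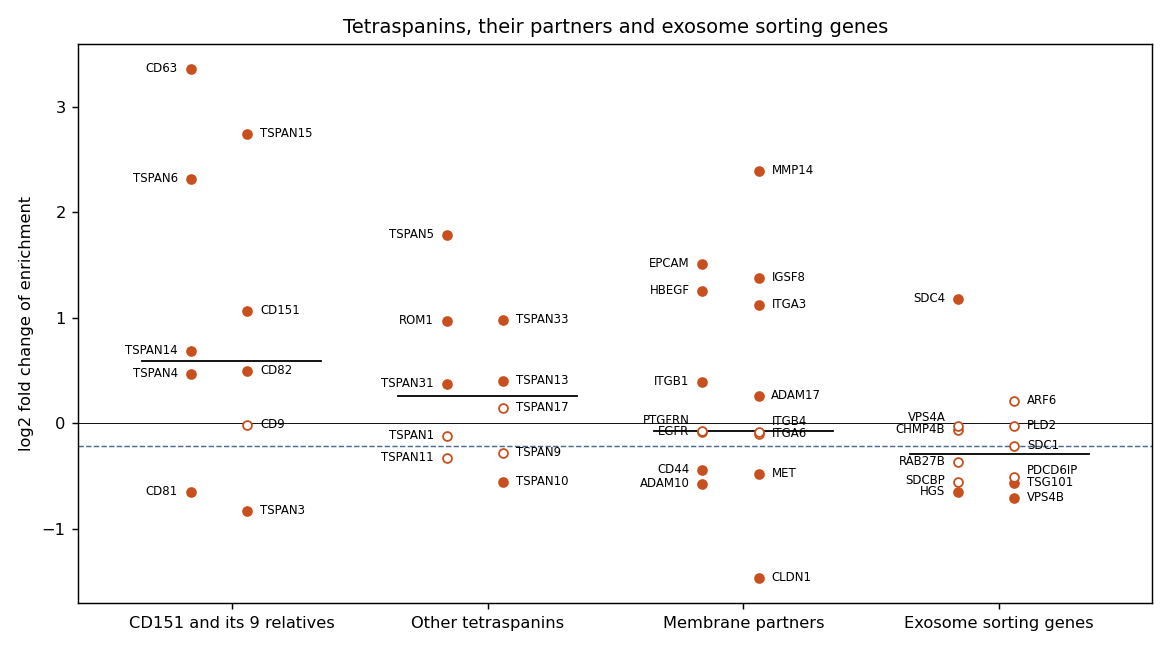
Log2 fold change of enrichment of the brightest probe of each measured gene, for the 10 tetraspanins, the other tetraspanins, the membrane partners and the exosome sorting genes. Filled points passed limma at an adjusted p of 0.05, open points did not, black lines are medians of each list (0.59, 0.26, -0.07 and -0.29) and the dashed line is the median of all measured genes, -0.22. With spike-in scaling every value below 0 turned positive except that of CLDN1, at -0.38.

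As a description of the pattern of CD151, each measured gene was centered on its own mean and set against CD151 over the 8 arrays. The closest were POLR3D, a subunit of RNA polymerase III (root mean square difference 0.0400 on the log2 scale), the ribosomal protein gene RPL23 (0.0476), RNASE10 (0.0536), IFITM4P (0.0566) and NPLOC4 (0.0634). Among the tetraspanins TSPAN14 was the closest, at place 109 of 10955 genes with a difference of 0.144, and TSPAN4 was at place 230. CD9 was the farthest of the 10, at place 9506. All genes share the same 8 arrays, so these places are a description only.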

How the data were processed

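Spot by spot, the authors deposited background-subtracted intensity values from Agilent Feature Extraction (version 9.1 in the submitters' processing notes, 12.0.1.1 in the file headers), and a table of GeneSpring log2 values. These deposited log2 values followed log2 intensity minus the 75th percentile of all probes with each probe centered, and served only as an alternative. Per the file headers the arrays are 1-color, and no spot was saturated.

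Control and outlier spots were left out, spots of a probe were averaged, and the 75th percentile of each array was subtracted, taken over the 16805 of 58201 probes (28.9%) well above background on all 8 arrays. Symbols came from RefSeq accessions looked up in RefSeq genes of GRCh38.p14 (31104 of 33080 probes matched). limma 3.58.1 in R 4.3.3 was fitted to these 16805 probes with 4 group means, p-values were adjusted by Benjamini-Hochberg, and 0.05 was the threshold. A gene was counted by its brightest probe. The number of arrays limits precision. In tests on simulated data for the fold change of enrichment, run on 16805 probes, 89.5% of 200 changed probes were recovered. In these data 70.2% of measured genes were called in that comparison, a far larger share. The simulated share therefore does not give the share recovered here.

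The members and gene lists were chosen with earlier results of these data known. Named were all 10 members, and of each list the largest called rise and fall, with ITGA3, ITGA6, ITGB1, ITGB4, ADAM10, IGSF8 and PTGFRN, and the 5 genes most like CD151. Further genes of the tetraspanin, partner and exosome lists were named after their values were seen. Other scalings, normalizations, filters, probe rules, a variance trend, a replicate block, a t-test on the ratios of same-numbered arrays and leaving out each array were tried.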

Additional observations from a re-analysis of the deposited data

Results flagged for a closer look

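The ratio of RIP to input differed between miR-634 and miR-NC cells by limma's test of that difference for 9 of the 10 tetraspanins, beside 70.2% of all measured genes, so such differences were common on these arrays. It was higher in miR-634 cells for CD63 (3.35), TSPAN15 (2.75), TSPAN6 (2.31), CD151 (1.06), TSPAN14 (0.69), CD82 (0.50) and TSPAN4 (0.47), all as log2 differences. It was lower for TSPAN3 (-0.83) and CD81 (-0.65), and these falls turned to 0.26 and 0.43, not called, with scaling on spike-in probes. For CD63 the spread of the miR-NC RIP arrays moved with the estimate, from 3.05 to 3.66 when 1 array was left out.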

How the results depend on the processing

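The fold change of enrichment of CD151 stayed called higher in all alternatives, from 1.02 with quantile normalization to 2.15 with spike-in scaling, and from 1.04 to 1.08 without 1 array. A t-test on the ratios of same-numbered arrays called 7 of the 10 genes higher and 2 lower in the fold change of enrichment, both unadjusted and after Benjamini-Hochberg adjustment. Of the 10956 measured genes it called 6533 and 5079, in either direction. The study names Student's t-test for its statistics in general, but picked its RIP-chip genes by a cutoff of the fold change. Of 1070 values of the 10 genes under the alternatives, 1012 kept their direction and side of the threshold and 43 changed sign, 29 of these with no call in either setting. 

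With scaling on spike-in probes, the members called in RIP over input were 0 higher and 10 lower in miR-NC cells and 3 higher and 4 lower in miR-634 cells, and 0 were called lower in the RIP change and in the fold change of enrichment. Of all genes, 98% (miR-NC) and 83.6% (miR-634) were then called lower in RIP over input, and 66.3% higher in the fold change of enrichment. In miR-NC cells RIP over input became -2.13 for CD151, -2.51 for CD81, -1.80 for TSPAN3, -1.68 for TSPAN4, -1.85 for TSPAN14 and -1.87 for TSPAN15, and in miR-634 cells -0.13 for TSPAN4 and -0.076 for TSPAN14. The input change became -0.11 for CD81, -0.14 for CD82, -0.090 for TSPAN3 and -0.12 for TSPAN4. The RIP change became 0.70 for CD9, 0.32 for CD81 and 0.17 for TSPAN3, and the fold change of enrichment 1.07, 0.43 and 0.26. The setting shifts each whole array, and the median of all genes moved to -2.65, -1.61, -0.23, 0.69 and 0.87 in the 5 comparisons.

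With the 75th percentile over all probes and with the authors' processed values, RIP over input of TSPAN3 in miR-634 cells was 0.0066 and 0.0058, the input change of CD151 0.0085 and 0.0072 and of TSPAN14 0.015 and 0.014, the RIP change of CD9 0.0040 and 0.0032 and its fold change of enrichment 0.11 in both. With quantile normalization, and with normexp before it, RIP over input of CD81 in miR-NC cells was -0.064 and -0.069 and the input change of CD151 0.013 and 0.016, and with normexp the input change of CD63 was 0.022 and 1 member, TSPAN3 (0.21), was called higher in input. The fold change of enrichment of CD9 reached 0.033 with median scaling, and with each comparison centered on its median CD82 and TSPAN3 in miR-634 cells reached 0.053 and 0.070, and the RIP change and fold change of enrichment of CD9 0.010 and 0.20. The mean of the probes gave TSPAN14 an input change of 0.081 and ended its call in miR-NC cells (0.10). Without 1 array, RIP over input of CD81 in miR-NC cells ran from -0.026 to 0.053, the fold change of enrichment of CD9 from -0.093 to 0.067 (0.047 without 1 miR-NC RIP array), and the input change of TSPAN14 from -0.088 to 0.0083. Except for the spike-in shift, the cause was not tested.

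Deviations of same-numbered arrays correlated at -0.03 to 0.08, and the main fit did not pair arrays by replicate number. Such low correlations cannot tell whether same-numbered arrays came from the same cells. With a replicate block the fold change of enrichment of CD151 was 1.06, and the RIP change had 3 members called lower instead of 2, the third being CD9 at -0.17.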
